A study of Homo sapiens with 12 samples.

Results

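The EPHB receptors and the ephrin-B ligands that bind them were followed at the RNA level in 2 human uveal melanoma cell lines treated with an inhibitor of the kinase ATR. The family comprised 8 genes, found by gene name: the receptors EPHB1, EPHB2, EPHB3, EPHB4 and EPHB6 and the ligands EFNB1, EFNB2 and EFNB3. They were 8 of 42342 features in the table of the line MP38 and 8 of 44938 in the table of the line 92.1. The members were chosen from earlier results on these same libraries, namely their CPM values (counts scaled to a common library size) in VE-822 against DMSO in each line and in untreated 92.1 against untreated MP38. Fold changes and calls for the 8 genes are therefore a description and carry no p-value.

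MP38 and 92.1 are established lines from melanomas of the uveal tract of the eye. Each line was exposed for 72 hours to DMSO as solvent control or to VE-822, also called berzosertib, which blocks ATR, a kinase that protects stalled replication forks. This gave 4 groups (MP38 in DMSO, MP38 in VE-822, 92.1 in DMSO and 92.1 in VE-822) of 3 poly(A) RNA libraries each, 12 in all. The dose is not given in the sources used here. It was set so that about 40% of the treated cells were viable when lysed. If that target was met, the treated libraries come from cultures with many dead or dying cells. Dose and line cannot be told apart, nor can line and table. Separate cultures are not stated for the libraries of a group, so the spread behind every test here may be technical.

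Eph receptors are receptor tyrosine kinases that sit on the cell surface and bind ephrins held on the surface of a neighbouring cell. B-class ephrins span the membrane, and contact signals in both directions, forward through the receptor's kinase and in reverse through the ephrin's cytoplasmic tail. The system is known for cell sorting, axon guidance and the migration of neural crest cells, from which melanocytes descend. In blood vessels EFNB2 marks arteries and EPHB4 marks veins, and in the intestinal crypt EPHB2 and EPHB3 are targets of beta-catenin and its TCF partners. EPHB6 carries a kinase domain without catalytic activity.

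The promoters of 4 members are shown, those with a matched promoter and a called change in MP38 above the lowest counts: EPHB3, EPHB4 and EFNB1 were lower in VE-822 there and EFNB2 was higher. The sequences are from RefSeq on GRCh38.p14, 5′ to 3′ on the strand of the gene, from 250 to 31 bases before the start. RefSeq promoters were matched for 7 of the 8 genes, all but EFNB3. The windows are chr3:184561535-184561754 (plus strand) for EPHB3, chr7:100827554-100827773 (minus strand) for EPHB4, chrX:68828771-68828990 (plus strand) for EFNB1 and chr13:106535693-106535912 (minus strand) for EFNB2. Capitals mark 2 motifs read on both strands, the GC box, GGGCGG, whose reverse complement is CCGCCC, and the CCAAT box, which reads ATTGG on the opposite strand; the capitals join where matches touch or share letters.
EPHB3: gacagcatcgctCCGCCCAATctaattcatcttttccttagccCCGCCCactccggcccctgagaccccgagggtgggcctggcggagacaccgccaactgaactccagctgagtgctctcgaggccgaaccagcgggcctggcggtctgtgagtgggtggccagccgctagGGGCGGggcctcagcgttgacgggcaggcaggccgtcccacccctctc
EPHB4: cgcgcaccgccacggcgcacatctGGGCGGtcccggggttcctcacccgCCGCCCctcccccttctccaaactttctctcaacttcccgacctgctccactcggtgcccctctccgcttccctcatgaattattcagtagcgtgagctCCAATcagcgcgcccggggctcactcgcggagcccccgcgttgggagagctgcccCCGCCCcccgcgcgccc
EFNB1: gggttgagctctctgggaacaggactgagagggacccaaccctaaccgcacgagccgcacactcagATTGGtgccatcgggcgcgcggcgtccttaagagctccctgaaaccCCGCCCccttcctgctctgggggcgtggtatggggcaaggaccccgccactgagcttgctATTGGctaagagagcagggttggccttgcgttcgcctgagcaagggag
EFNB2: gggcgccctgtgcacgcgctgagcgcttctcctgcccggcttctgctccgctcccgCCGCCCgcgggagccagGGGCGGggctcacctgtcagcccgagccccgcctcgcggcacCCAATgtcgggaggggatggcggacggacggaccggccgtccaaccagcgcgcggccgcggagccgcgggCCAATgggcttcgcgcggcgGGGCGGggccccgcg

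GGGCGG was found in all 7 matched promoters, with 3 matches each in EPHB3, EPHB4 and EFNB2 and 1 match in each of the others. Of 35114 RefSeq promoter windows of the same length, 38.9% held it. CCAAT was found in EPHB1, EPHB3, EPHB4, EFNB1 and EFNB2 and in 29.8% of all windows. The printed promoters were rich in G and C, at 68.2% for EPHB3, 70% for EPHB4, 63.6% for EFNB1 and 80% for EFNB2, with 16, 24, 13 and 35 CpG pairs, against medians of 57.7% and 9 over all windows. EPHB2 was the richest member at 86.4% and EPHB6 the poorest at 50.9%. The EPHB6 window, chr7:142862506-142862725 (plus strand), lies inside the counted feature, chr7:142855061-142871094, and not before that feature's start. Its letters are therefore not comparable with those of the other windows. TATAAA (8.09% of all windows), CACGTG (5.41%), CTTTGA (10.1%) and TGANTCA (5.98%) were in none of the 7 windows, and CATGTG (8.38%) was in EPHB6 alone. These matches are letters in a window and nothing more. The 4 printed promoters all held both motifs, as did that of EPHB1, which was not called in MP38. Those of EPHB2, higher in VE-822 in MP38, and of EPHB6, not called there, held no CCAAT.

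The MP38 libraries held 54415628 to 63638976 counts each and the 92.1 libraries 112374503 to 137664800. CPM values use TMM scaling factors over all 12 libraries, so that both lines share 1 scale. Whether a value means the same in both lines was not tested, and 79.7% of genes were called between the DMSO groups. On that scale 1 count was 0.0146 to 0.0174 CPM in MP38 and 0.00776 to 0.00959 CPM in 92.1. All 6 melanocyte markers were above 1 CPM in every group, summing to 4117 to 5100 CPM in MP38 and 8108 to 8875 CPM in 92.1. Of the fibroblast, endothelial, leukocyte and epithelial marker lists, only COL1A1 and VWF reached a mean of 1 CPM in any group. Summed over 5 genes, the fibroblast list ranged from 0.326 to 0.482 CPM in DMSO and from 1.42 to 2.04 in VE-822 in MP38, and from 2.84 to 4.0 and from 5.78 to 6.44 in 92.1. The endothelial list, also 5 genes, ranged from 1.98 to 2.79 and from 2.95 to 3.70 CPM in MP38 and from 0.0767 to 0.148 and from 0.405 to 0.837 in 92.1. The leukocyte and epithelial lists, of 4 genes each, stayed under 1 CPM in every library. These sums were higher in VE-822 for fibroblast and endothelial markers. COL1A1 was the largest part of the fibroblast sums, and VWF of the endothelial sums in MP38. In MP38 COL1A2 and PECAM1 were lower in VE-822, on 0 to 9 counts per library, and the other genes of both lists were higher. The part of these markers in the family's values was not tested. DMSO library 3 of 92.1 stood apart. Its chi-square per gene against DMSO libraries 1 and 2 was 82.0 and 82.6, against 2.30 to 7.45 for the other replicate pairs, so results for 92.1 are given with and without it.

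In MP38 the family's main change was in EPHB3 and EPHB4, the 2 receptors with the highest level per length, and in the ligands EFNB1 and EFNB3, all lower in VE-822. EPHB3 had the largest fall in MP38, 4.86-fold. EFNB2 and the nearly silent EPHB2 were higher. A gene was called where edgeR's quasi-likelihood test gave a Benjamini-Hochberg adjusted p under 0.05 over all genes tested. By that rule 6 of the 8 members were called in MP38, 2 higher and 4 lower, where 52.3% of all genes tested were called, 26.9% higher and 25.4% lower. Because the members were chosen on this contrast, nothing is read from that count. Their median log2 fold change was -0.42, against -0.01 over all 21415 genes tested. RNA was taken from whole cultures, so fewer expressing cells and less RNA per cell cannot be told apart.

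**Figure D1:**
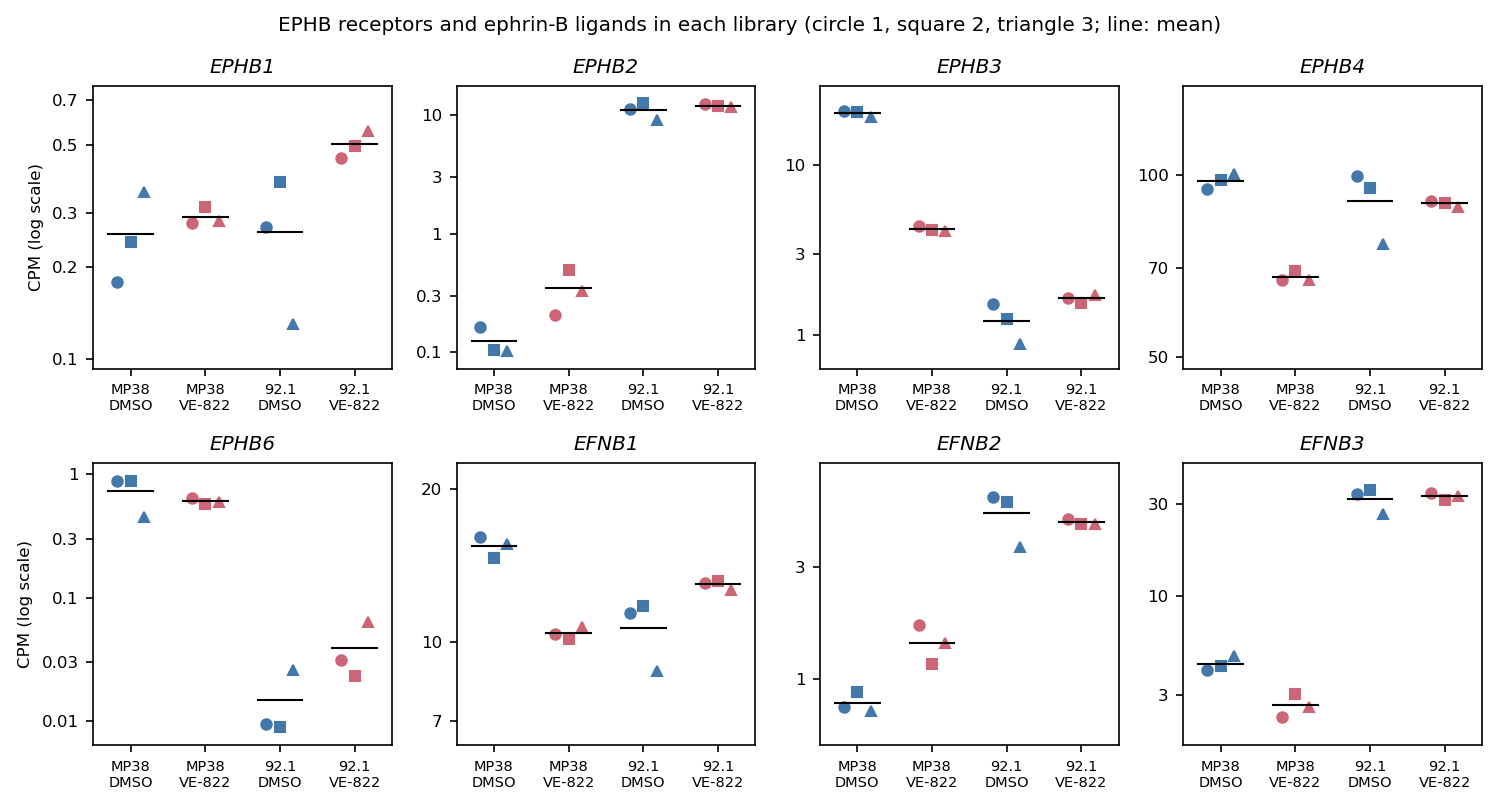
Each point is 1 library of an EPHB receptor or ephrin-B ligand gene, in CPM on a log scale that differs between panels, with DMSO in blue, VE-822 in red and a black line at the mean of the 3 libraries. EPHB3 in MP38 sits at 19.3 to 21.0 CPM in DMSO and 4.11 to 4.36 CPM in VE-822, while the lowest point of 92.1 in DMSO is library 3 (triangle) in every panel but EPHB6.

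Among the receptors, EPHB3 (chr3:184561785-184582408) was present at 21.0, 20.6 and 19.3 CPM in the 3 DMSO libraries of MP38 and at 4.36, 4.13 and 4.11 CPM in the 3 VE-822 libraries. The groups were far apart compared with their spread, and the log2 fold change was -2.28 ± 0.0664 (SE). The difference kept its sign and its call in all 16 alternative settings, with values between -2.32 and -1.57.

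EPHB4 (chr7:100802565-100827523), the receptor tied to veins, had the highest level per length of the family in every group. In MP38 it stood at 94.9, 98.0 and 100.2 CPM in DMSO and at 67.1, 69.3 and 66.9 CPM in VE-822. The groups did not overlap, and the log2 fold change was -0.54 ± 0.0375 (SE). Its start overlaps that of SLC12A9, a gene on the other strand, and whether counting used strand is not given in the sources used here, so reads in the shared stretch are uncertain. SLC12A9 itself fell in MP38, from 88.8 ± 2.02 to 57.2 ± 1.77 CPM (SD over 3 libraries per group; edgeR log2 fold change -0.64 ± 0.0381, adjusted p = 1.66e-11). Its part in the EPHB4 value was not tested.

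EPHB2 (chr1:22710839-22921500) was close to silent in MP38, at 0.163, 0.106 and 0.102 CPM in DMSO and 0.208, 0.499 and 0.332 CPM in VE-822. These values stand for 7 to 11 counts in DMSO and 12 to 32 in VE-822. The groups did not overlap, but VE-822 library 2 was more than the others, and the log2 fold change of 1.48 ± 0.416 (SE) fell to 1.11 and lost its call without that library. The call was also lost in limma on log2(FPKM + 1), at 0.026, and on log2(FPKM + 0.1), at 0.22. EPHB2 passed the filter on low counts through the treated group, where 3 libraries were over the minimum against 1 in DMSO, so a difference was built into its being tested.

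EPHB1 (chr3:134795260-135260467), a receptor best known from axon guidance, was at 0.178, 0.241 and 0.350 CPM in DMSO and 0.278, 0.312 and 0.282 CPM in VE-822 in MP38. The groups overlapped, and the log2 fold change was 0.17 ± 0.351 (SE). An overlapping noncoding gene on the other strand, RP11-657O9.1, had 70 to 102 counts in the MP38 libraries against 12 to 24 for EPHB1, so the EPHB1 counts in MP38 are uncertain. The kinase-dead EPHB6 (chr7:142855061-142871094) was at 0.890, 0.875 and 0.452 CPM in DMSO and 0.642, 0.577 and 0.597 CPM in VE-822. DMSO library 3 lay below all VE-822 libraries and the other DMSO libraries above them, with a log2 fold change of -0.29 ± 0.259 (SE).

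Among the ligands, EFNB1 (chrX:68829021-68842160), the X-linked ephrin-B, was at 16.1, 14.7 and 15.6 CPM in DMSO and 10.4, 10.1 and 10.7 CPM in VE-822 in MP38. Every treated library was below every untreated one, with a log2 fold change of -0.58 ± 0.0601 (SE). EFNB3 (chr17:7705202-7711372), best known from the nervous system, was at 4.09, 4.28 and 4.81 CPM in DMSO and 2.31, 3.04 and 2.62 CPM in VE-822. The groups did not overlap, and the log2 fold change was -0.73 ± 0.115 (SE).

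EFNB2 (chr13:106489745-106535662), the arterial ligand and a binding partner of EPHB4, moved the other way. It was at 0.756, 0.875 and 0.730 CPM in DMSO and 1.7, 1.15 and 1.43 CPM in VE-822 in MP38. All treated libraries were above all untreated ones, with a log2 fold change of 0.84 ± 0.192 (SE). The level was low, and the call was lost in limma on log2(FPKM + 1), where the value was 0.15, and on log2(FPKM + 0.1), where it was 0.55.

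In 92.1, fitted alone with edgeR and TMM factors, no member of the family passed the threshold. Of 7 members tested 0 were called, where 39.9% of all genes were called, 20.3% higher and 19.6% lower; the members were chosen on this contrast too. The median log2 fold change of the 7 was 0.09, against 0.03 over all 22943 genes tested. With an unadjusted edgeR p under 0.05 as the rule, 2 of the 7, EPHB1 and EFNB1, would be called, as would 48.4% of all genes, again as a description. DESeq2 called 1 member, EPHB1, and 40.7% of all genes. The joint fit of all 12 libraries called EPHB1, EPHB3 and EFNB1 higher, beside 42.8% of all genes called. The counts depended on DMSO library 3. That library was the lowest of the 3 DMSO libraries for 7 of the 8 members, at a median 0.759 of the mean of libraries 1 and 2, whereas it was the lowest for 49.3% of 14412 features averaging 1 CPM or more, at a median ratio of 0.981. Without it, 3 of the 7 members were called, all lower, where 55.7% of all genes were called, 26.8% higher and 29.0% lower.

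EPHB4 was at 99.6, 95.2 and 77.0 CPM in DMSO and 90.7, 90.0 and 88.6 CPM in VE-822 in 92.1. The treated values lay inside the untreated range, with a log2 fold change of -0.05 ± 0.0855 (SE). Without DMSO library 3 the value was -0.18 ± 0.0312 and was called. SLC12A9, which overlaps EPHB4, rose in 92.1 from 41.0 ± 3.45 to 56.6 ± 1.14 CPM (SD over 3 libraries; edgeR log2 fold change 0.43 ± 0.0656, adjusted p = 0.00109).

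EPHB2 was at 11.4, 12.6 and 9.12 CPM in DMSO and 12.4, 11.9 and 11.8 CPM in VE-822 in 92.1. The groups overlapped, with a log2 fold change of 0.09 ± 0.109 (SE), or -0.06 without DMSO library 3. EPHB3, which fell in MP38, was at 1.52, 1.23 and 0.886 CPM in DMSO and 1.66, 1.55 and 1.73 CPM in VE-822. Here the treated libraries were the higher ones, by 0.40 ± 0.189 (log2, SE), a difference that was not called. Without DMSO library 3 it was 0.19, and without DMSO library 1 it was 0.57 and was called.

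EPHB1 was at 0.268, 0.378 and 0.130 CPM in DMSO and 0.452, 0.497 and 0.555 CPM in VE-822 in 92.1. The groups did not overlap, and the log2 fold change of 0.92 ± 0.332 (SE) was not called; it was 0.56 without DMSO library 3 and 1.29, with a call, without DMSO library 2. EPHB6 was all but absent from 92.1, with 1, 1 and 3 counts in DMSO and 4, 3 and 7 counts in VE-822, and was not tested there.

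Among the ligands in 92.1, EFNB1 was at 11.4, 11.8 and 8.80 CPM in DMSO and 13.1, 13.2 and 12.7 CPM in VE-822. The treated libraries were all higher, by 0.25 ± 0.105 (log2, SE), which was not called and was 0.10 without DMSO library 3. EFNB2 was at 5.98, 5.70 and 3.64 CPM in DMSO and 4.79, 4.57 and 4.60 CPM in VE-822, with overlapping groups. Its log2 fold change was -0.17 ± 0.167 (SE), and without DMSO library 3 it was -0.39 ± 0.0736 and was called lower. EFNB3 was at 34.2, 35.5 and 26.6 CPM in DMSO and 34.6, 31.5 and 33.3 CPM in VE-822. The groups overlapped, with a log2 fold change of 0.01 ± 0.102 (SE), or -0.14 ± 0.0426 and a call without DMSO library 3.

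**Figure D2:**
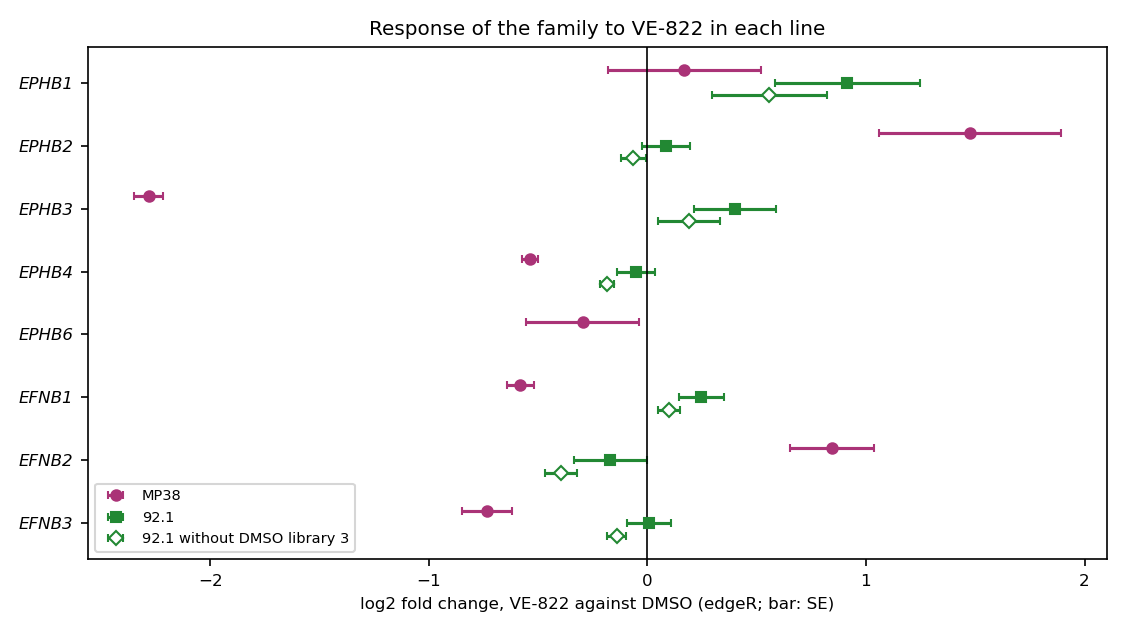
Points give the log2 fold change of each member in VE-822 against DMSO, in MP38 (circles) and in 92.1 (squares), with bars of 1 SE, and open diamonds give 92.1 without DMSO library 3. EPHB3 is at -2.28 in MP38 and 0.40 in 92.1, and EPHB6 was not tested in 92.1.

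The difference between the responses was taken from 1 fit of all 12 libraries, as the 92.1 response minus the MP38 response. It was called for 6 of the 8 members, 4 higher and 2 lower, where 40.9% of all genes were called, 22.1% higher and 18.8% lower, and the choice of members had used both responses. The median over the members was 0.77, against 0.11 over all 24958 genes tested. EPHB3 had the largest difference among the members, 2.71 ± 0.184 (log2, SE), between 2.48 and 2.91 over 19 alternative settings. The other members with a less negative or more positive response in 92.1 were EFNB1 (0.86 ± 0.128), EFNB3 (0.77 ± 0.163) and EPHB4 (0.51 ± 0.10). EFNB2 (-0.99 ± 0.269) and EPHB2 (-1.37 ± 0.398) had the opposite sign, and the EPHB2 difference lost its call without VE-822 library 2 of MP38, at -1.05. EPHB1 differed by 0.77 ± 0.487 and EPHB6, which had 1 to 7 counts per library in 92.1, by 1.55 ± 0.766, neither called. Without DMSO library 3 of 92.1 6 members and 49.1% of all genes were called, and EPHB3 was at 2.48, EFNB1 at 0.69, EFNB3 at 0.60, EPHB4 at 0.36, EFNB2 at -1.22 and EPHB2 at -1.54.

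Between the untreated lines EPHB3, EPHB6 and EFNB1 were lower in 92.1 and EPHB2, EFNB2 and EFNB3 were higher. Between the DMSO groups 6 of the 8 members were called, 3 higher and 3 lower in 92.1, where 79.7% of all 24958 genes tested were called, 38.5% higher and 41.2% lower. The members' share of 75% was near that background, and this contrast was used in choosing them too. EPHB3 was 16.8-fold lower in 92.1 (log2 -4.07 ± 0.132, SE), and EFNB1 was lower by a log2 value of -0.54 ± 0.0898. EFNB3 was 7.29-fold higher in 92.1 (2.87 ± 0.113) and EFNB2 6.48-fold higher (2.7 ± 0.193).

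The receptors that were nearly silent in 1 line differed most between the untreated lines. EPHB2 had 3640 counts over the 3 DMSO libraries of 92.1 and 25 over those of MP38, a depth-scaled ratio of 89.1 (95% exact Poisson interval 60.3 to 138). EPHB6 had 149 counts in MP38 and 5 in 92.1, a ratio of 48.7 in favour of MP38 (20.4 to 152). Both intervals cover counting error only and describe a contrast used in the choice of members. EPHB6 was tested between the lines through its MP38 libraries, since no 92.1 library was over the minimum count. EPHB4 (-0.11 ± 0.0707) and EPHB1 (0.01 ± 0.356) were not called. With library totals alone as the scale, EPHB4 was called at -0.33 and EPHB1 changed sign to -0.21. Without DMSO library 3 of 92.1 6 members and 82.2% of all genes were called, EPHB3 was at -3.88, EFNB1 at -0.41, EFNB3 at 2.99, EFNB2 at 2.90 and EPHB4 at 0.00096.

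To compare genes with each other, the deposited FPKM values were used, which divide by feature length and library total and use no TMM factors. The FPKM and CPM scales differ between the lines. In DMSO EPHB4 was at 16.4 FPKM in MP38 and 13.1 in 92.1, and at 97.7 and 90.6 CPM. In MP38 in DMSO the order was EPHB4 (16.4 FPKM), EFNB1 (5.06), EPHB3 (4.84), EFNB3 (1.48), EFNB2 (0.170), EPHB6 (0.150), EPHB1 (0.0477) and EPHB2 (0.0107). The libraries of EFNB1 and EPHB3 overlapped in level, as did those of EFNB2 and EPHB6. In MP38 in VE-822 EPHB4 (11 FPKM) and EFNB1 (3.30) kept their places, while EPHB3 (0.969) dropped to the level of EFNB3 (0.863), with overlapping libraries. The remaining order was EFNB2 (0.298), EPHB6 (0.119), EPHB1 (0.0517) and EPHB2 (0.0290).

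In 92.1 in DMSO the order was EPHB4 (13.1 FPKM), EFNB3 (9.27), EFNB1 (3.00), EFNB2 (0.947), EPHB2 (0.819), EPHB3 (0.249), EPHB1 (0.0413) and EPHB6 (0.00300), and only EFNB2 and EPHB2 overlapped as neighbours. VE-822 kept this order but for that pair: EPHB4 (13.2 FPKM), EFNB3 (9.77), EFNB1 (3.73), EPHB2 (0.912), EFNB2 (0.882), EPHB3 (0.345), EPHB1 (0.0813) and EPHB6 (0.00700), with no overlap between neighbours. The main ligand thus differed between the lines, EFNB1 in MP38 and EFNB3 in 92.1, while EPHB4 was the main receptor in both.

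Summed over the family, EPHB receptor RNA in MP38 was 21.4 ± 0.326 FPKM in DMSO and 12.2 ± 0.380 in VE-822 (SD, n = 3). In 92.1 it was 14.2 ± 1.90 and 14.6 ± 0.133 FPKM, the DMSO libraries standing at 15.6, 15 and, for library 3, 12. The drop in MP38 was a drop in EPHB3 and EPHB4 together: EPHB3 held 22.6% ± 1.17 of the receptor sum in DMSO and 7.97% ± 0.320 in VE-822, and EPHB4 76.5% ± 1.33 and 90.4% ± 0.276. In 92.1 EPHB4 held 92.2% ± 0.498 and 90.8% ± 0.206.

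Ephrin-B RNA summed to 6.70 ± 0.212 FPKM in DMSO and 4.46 ± 0.0129 in VE-822 in MP38, and to 13.2 ± 2.06 and 14.4 ± 0.415 in 92.1. EFNB1 was 75.4% ± 1.72 of the ligand sum in untreated MP38 and 22.7% ± 0.137 in untreated 92.1. EFNB3 was 22.0% ± 1.68 and 70.2% ± 0.669. In VE-822 the EFNB1 share was 73.9% ± 1.43 in MP38 and 26.0% ± 1.03 in 92.1, and the EFNB3 share 19.4% ± 2.66 and 67.9% ± 1.09. The EFNB2 share in MP38 went from 2.54% ± 0.348 to 6.70% ± 1.33.

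**Figure D3:**
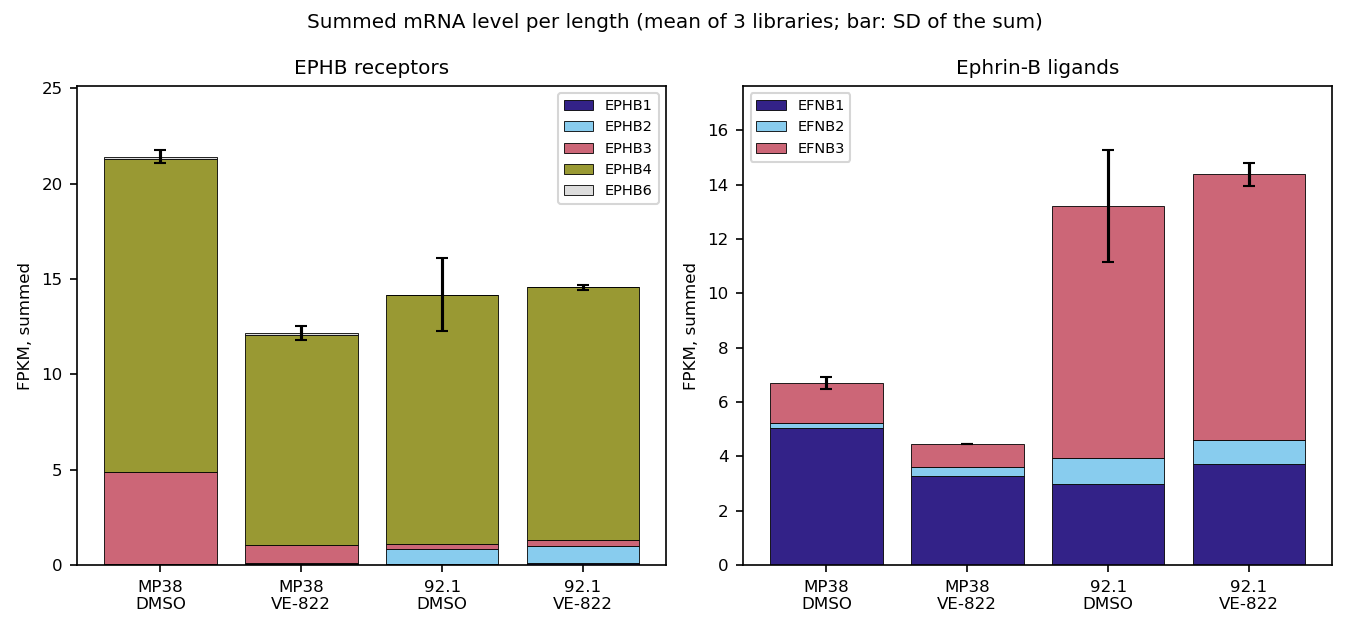
Stacked bars give the mean FPKM of each EPHB receptor and each ephrin-B ligand in the 4 groups, and the error bar is the SD of the sum over 3 libraries. EPHB4 fills most of every receptor bar, and the receptor sum of MP38 is 21.4 FPKM in DMSO and 12.2 FPKM in VE-822.

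The A-class receptors and ephrins, the other branch of the system, give the frame for these sums. EPHB RNA made up 41.3% ± 1.27 of all Eph receptor FPKM in untreated MP38 and 30.9% ± 0.679 after VE-822 (SD, n = 3). In 92.1 the B-class share was 56.0% ± 4.24 and 43.9% ± 0.377, with 51.1% in DMSO library 3 and 58.4% and 58.5% in the other untreated libraries. The parts moved differently: in MP38 the EPHB sum was the lower one in VE-822, and the A-class sum was 30.5 ± 1.75 and 27.3 ± 1.01 FPKM. In 92.1 the EPHB sum was nearly level, and the A-class sum went from 11 ± 0.415 to 18.6 ± 0.325 FPKM.

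Other genes of the pathway were taken from 6 lists of 61 genes and tested in the same fits. In MP38 31 of 55 tested were called, 18 higher and 13 lower, with a median log2 fold change of 0.02, and in 92.1 27 of 56 were called, 12 higher and 15 lower, with a median of -0.08. As shares these are 56.4% and 48.2%, beside 52.3% and 39.9% of all genes. Without DMSO library 3, 41 of 57 were called in 92.1, 15 higher and 26 lower, beside 55.7% of all genes. EPHA2, EPHA7, EFNA1, AFDN, RGS3, ADAM10, TCF7 and LEF1 kept their direction and call in 92.1 without it.

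Of the A-class receptors, 3 of 7 tested were higher and 1 lower in MP38, and 4 of 7 were higher and 1 lower in 92.1. Of all genes, 26.9% were called higher and 25.4% lower in MP38, and 20.3% and 19.6% in 92.1. Without DMSO library 3, 4 of 8 tested were higher and 1 lower in 92.1, beside 26.8% and 29.0% of all genes. The neural receptor EPHA5 rose in MP38 from 2.98 ± 0.129 to 9.72 ± 1.05 CPM (log2 1.69 ± 0.0923, edgeR adjusted p = 4.47e-12), unlike EPHB3 and EPHB4 there. EPHA3, the receptor with the highest A-class level in MP38, fell slightly, from 172.8 ± 10.8 to 151 ± 3.68 CPM (-0.20 ± 0.0428, adjusted p = 0.000493). In 92.1 EPHA2, a receptor of epithelia and many tumours, rose from 40.4 ± 1.30 to 72.8 ± 1.43 CPM (0.81 ± 0.0498, adjusted p = 6.41e-06), and EPHA7 fell from 8.94 ± 0.453 to 3.10 ± 0.372 CPM (-1.57 ± 0.105, adjusted p = 9.77e-06). Of 5 A-class ephrins, 2 fell in MP38 and none rose, while in 92.1 1 rose and 1 fell. Without DMSO library 3 of 92.1, 1 rose and 4 fell there, beside 55.7% of all genes called. EFNA1, a ligand of EPHA2, had a log2 fold change of -0.52 ± 0.0774 in MP38 and 0.64 ± 0.0896 in 92.1 (adjusted p = 8.86e-06 and 0.000658).

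Of the kinases and adaptors that bind active Eph receptors, 6 of 15 were higher and 3 lower in MP38, beside 26.9% and 25.4% of all genes. In 92.1 2 of 14 were higher and 3 lower, beside 20.3% and 19.6% of all genes. Without DMSO library 3, 3 of 14 were higher and 6 lower in 92.1, beside 26.8% and 29.0% of all genes. The tyrosine kinase ABL2 rose in MP38 from 55.9 ± 2.27 to 176 ± 13.2 CPM (log2 1.64 ± 0.0496, edgeR adjusted p = 5.93e-16), and the adaptor GRB10 rose by 0.83 ± 0.0497 (1.99e-11). In 92.1 the junction protein AFDN fell by 0.35 on the log2 scale (adjusted p = 0.000599).

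On the ligand side, 4 of 9 tail partners and sheddases were higher and 1 lower in MP38, beside 26.9% and 25.4% of all genes. In 92.1 2 were higher and 2 lower, beside 20.3% and 19.6% of all genes. Without DMSO library 3, 4 of 9 were higher and 3 lower in 92.1, beside 26.8% and 29.0% of all genes. RGS3, which binds the ephrin-B tail through its PDZ domain, rose in MP38 from 9.65 ± 0.788 to 20.4 ± 2.47 CPM (log2 1.07 ± 0.0783, edgeR adjusted p = 4.19e-10) and in 92.1 from 90.7 ± 7.44 to 115 ± 7.51 CPM (0.30 ± 0.0697, adjusted p = 0.00915). The sheddase ADAM10, which can cut ephrins, rose in MP38 (0.32 ± 0.0376, adjusted p = 5.01e-07) and fell in 92.1 (-0.47 ± 0.0522, adjusted p = 0.000199).

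Of the beta-catenin and TCF target genes, set beside EPHB2 and EPHB3, 1 of 7 tested was higher and 2 lower in MP38. In 92.1 1 of 9 was higher and 3 lower. Of all genes, 26.9% were called higher and 25.4% lower in MP38, and 20.3% and 19.6% in 92.1. Without DMSO library 3, 1 of 9 was higher and 4 lower in 92.1, beside 26.8% and 29.0% of all genes. The TCF genes TCF7 and LEF1 fell in both lines, TCF7 from 11.7 ± 0.372 to 5.28 ± 0.458 CPM in MP38 (log2 -1.15 ± 0.0749, edgeR adjusted p = 6.97e-11) and from 17.6 ± 1.49 to 10.5 ± 0.539 CPM in 92.1 (-0.78 ± 0.0799, adjusted p = 0.000116). LEF1 fell from 226 ± 7.38 to 149 ± 3.04 CPM in MP38 (-0.61 ± 0.0382, adjusted p = 4.02e-11) and from 17.7 ± 1.32 to 14.5 ± 0.446 CPM in 92.1 (-0.32 ± 0.0699, adjusted p = 0.00626). The gene called higher in MP38 was NOTUM (0.35 ± 0.130, edgeR adjusted p = 0.029), kept in 3 of 6 fits that left out 1 library. In 92.1 it was LGR5 (4.02 ± 0.716), on 0 to 6 counts per library in DMSO and 37 to 42 in VE-822. LGR5 passed the filter on low counts through the treated group alone, so a rise was built into its being tested. ZNRF3 fell in 92.1 (-0.51 ± 0.113, edgeR adjusted p = 0.00691). AXIN2, NKD1 and RNF43 were called in neither line with all libraries. EPHB3 was lower in VE-822 in MP38 and higher, without a call, in 92.1. EPHB2 was called higher in MP38 on 7 to 32 counts per library and was not called in 92.1.

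**Figure D4:**
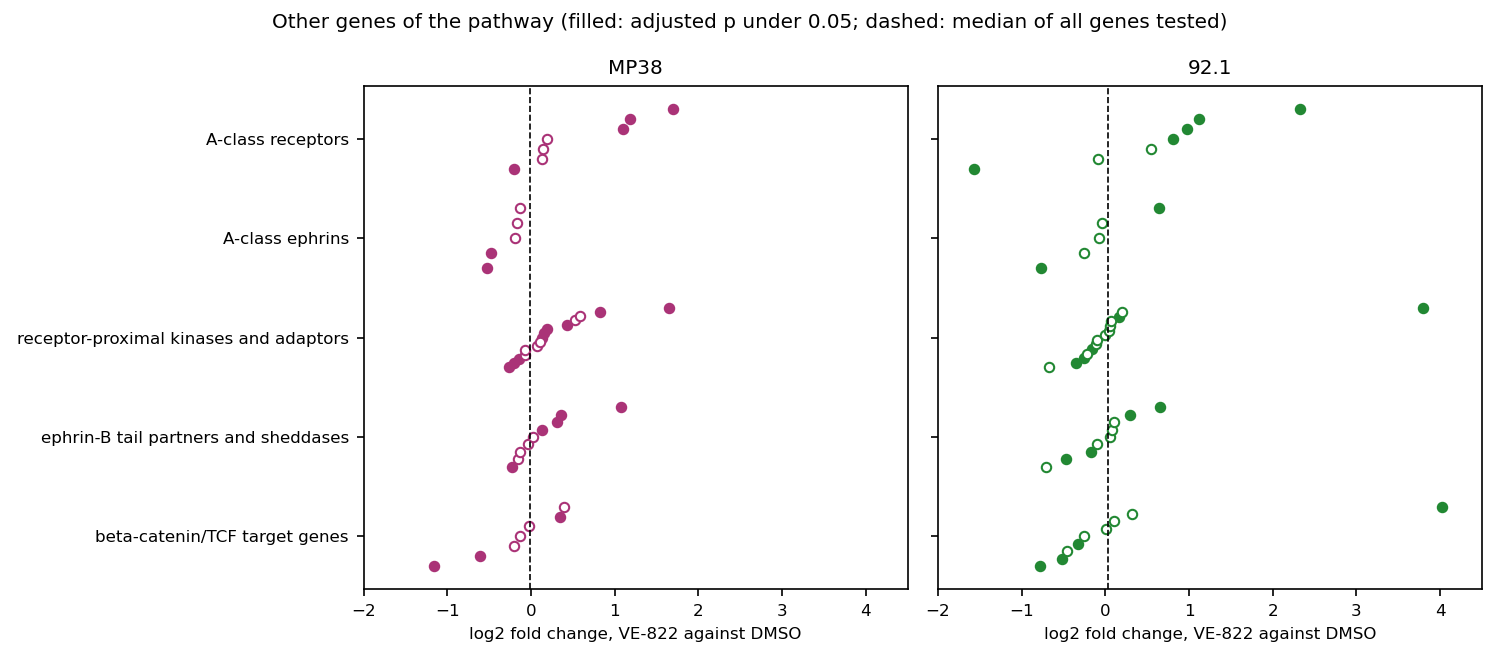
Each point is the log2 fold change of 1 pathway gene in VE-822 against DMSO, for 5 of the 6 lists and by line, filled where the edgeR adjusted p was under 0.05, and the dashed line is the median of all genes tested. In MP38 EPHA5 is at 1.69, ABL2 at 1.64 and TCF7 at -1.15, and the points farthest right in 92.1 are the low-level genes LGR5 at 4.02 and GRB7 at 3.79. These were tested through their treated libraries alone, with 0 to 6 counts per DMSO library for LGR5 and 1 to 2 for GRB7.

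The genes whose level followed a member most closely over the 12 libraries were found by Pearson's r of log2(CPM + 1), among 10909 protein-coding genes averaging 5 CPM or more. The 12 points fall into 4 groups of 3 that share line and treatment, so r mostly reflects the 4 group means and is a description. For EPHB3 they were PPM1F (r = 0.997), LRPAP1 (0.991) and BIN1 (0.991), and BIN1 stood at 58.3 CPM in MP38 in DMSO, 29.4 in MP38 in VE-822, 17.4 in 92.1 in DMSO and 17.3 in 92.1 in VE-822. For EPHB4 they were SKI (0.983), BCL9 (0.972) and C11orf95 (0.968), of which SKI stood at 91.6, 64.6, 87.1 and 87.5 CPM in the same order. For EFNB1 they were CKAP4 (0.972), SBK1 (0.961) and SGSM2 (0.957). EPHB2 was followed by WNK2, HGSNAT and KIF1A, each at 0.999, and EFNB3 by B4GALNT4, LIMD2 and FAM53B, each at 0.998, sets that mainly separate 92.1 from MP38. EPHB1, EPHB6 and EFNB2 had a mean under 5 CPM and were not matched.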

How the data were processed

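Poly(A) RNA was read in 12 libraries. Per the submitters' processing notes, reads were handled with STAR 2.7.11a, featureCounts 2.0.6, cutadapt 4.8, FastQC 0.12.1 and MultiQC 1.7, with GRCh38.p13 as the build; parameters and strandedness are not given in the sources used here. The authors deposited raw counts per gene in 1 table for each line. Their deposited FPKM is those counts over feature length and library total, to 3 decimals; recomputed, 0 values were off by more than 0.0006.

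Tests used edgeR 4.0.16 in R 4.3.3 on the counts: filterByExpr (minimum count 10, minimum total 15), TMM factors, and a quasi-likelihood F test with Benjamini-Hochberg adjustment over all genes tested. Each line was fitted alone. The difference between responses and the contrast of DMSO groups came from 1 fit of all 12 libraries, over features in both tables. SE is the fold change over the square root of F. The fits were tested on simulated data. Group CPM and FPKM are mean ± SD over 3 libraries.

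The members, lists and tests were chosen with earlier results of these data known. Named pathway genes are drawn from up to 3 called genes per list and line with the smallest adjusted p and at least 1 CPM. Outside that rule are LGR5, GRB7, the genes named as not called, and some of those under Other observations. Alternatives were other scaling (RLE, or library totals alone), DESeq2 1.42.0, other filters, a robust fit, a replicate block, leaving out each library, and limma 3.58.1 on FPKM. Of the 6 pathway lists, 1 enters the totals and is not reported here on its own.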

Additional observations from a re-analysis of the deposited data

Results flagged for a closer look

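For 6 of the 8 genes the response to VE-822 differed between the lines in the joint fit of all 12 libraries (edgeR), beside 40.9% of all genes called in that contrast. The values are the 92.1 response minus the MP38 response on the log2 scale, and the genes were chosen with both responses known. EPHB3 differed by 2.71, from a fall in MP38 to treated libraries that were all higher in 92.1. EFNB1 differed by 0.86, EFNB3 by 0.77 and EPHB4 by 0.51, each lower in VE-822 in MP38. EFNB2 (-0.99) and EPHB2 (-1.37) were higher in VE-822 in MP38, and EPHB2 there rests on 7 to 32 counts per library.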

How the results depend on the processing

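Members called in 92.1 were 2 with library totals alone as the scale (40.2% of all genes called), 1 with DESeq2 (40.7%), 1 without a filter (23.8%) and 1 at a mean of at least 1 CPM (49.3%), against 0 (39.9%). Leaving out each library in turn gave 0 to 3 members in 92.1, 5 to 6 in MP38, 5 to 6 for the difference between responses and 6 to 7 between DMSO groups; pathway genes called ranged from 22 to 41 in 92.1 (27 with all libraries) and from 30 to 32 in MP38. All genes called ranged from 6742 to 13276 in 92.1, the highest without DMSO library 3, from 10112 to 10755 in MP38, 9259 to 11912 for the difference and 19170 to 20675 between DMSO groups. Values near 0 changed sign. EFNB3 in 92.1 was -0.016 with RLE and with DESeq2, -0.026 without a filter, and -0.14 (without DMSO library 3) to 0.076 leaving out each library. EPHB4 in 92.1 was 0.018 with library totals, 0.0088 at a mean of at least 1 CPM, and 0.024 and 0.026 in limma on log2(FPKM + 1) and log2(FPKM + 0.1). Leaving out each library, EPHB2 in 92.1 ranged from -0.064 (without DMSO library 3) to 0.18 and EPHB1 in MP38 from -0.039 (without DMSO library 1) to 0.46. Between DMSO groups EPHB1 was -0.21 with library totals and ranged from -0.37 (without 92.1 library 2) to 0.34, and EPHB4 from -0.18 to 0.00096 (without 92.1 library 3). The joint fit called EPHB1 (0.95), EPHB3 (0.44) and EFNB1 (0.29) higher in 92.1. The causes were not tested.

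Genes called lower were 4498 in 92.1 but 6899 without DMSO library 3 and 2757 and 2776 in limma on FPKM, and 10292 between DMSO groups but 6630 at a mean of at least 1 CPM. Library totals moved the share of calls that were higher in 92.1 from 50.9% to 61.7% and the median of all genes between DMSO groups by -0.22. Same-numbered DMSO and VE-822 libraries correlated in their deviations by -0.15 to -0.03 in MP38 and 0.089 to 0.12 in 92.1, so the numbers were not taken as pairs; in 92.1 each library correlated best with its own number, a hint from the data. With a replicate block 6 members were called in MP38 (49.8% of all genes), 0 in 92.1 (38.2%), 6 for the difference (39.6%) and 6 between DMSO groups (71.3%), and 31 and 27 pathway genes in MP38 and 92.1. EPHB1, EPHB2 in MP38 and EPHB6 rest on few counts, where depth limits what could be seen.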

Other observations

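Of 9 A-class receptors tested between the untreated lines, 4 were higher and 4 lower in 92.1 than in MP38, beside 79.7% of all genes called, and all 5 A-class ephrins were called, 3 higher and 2 lower. EPHA3 was at 172.8 ± 10.8 CPM in MP38 and 0.262 ± 0.0362 CPM in 92.1 in DMSO (SD, n = 3 in each group; edgeR log2 -9.35 ± 0.0936, adjusted p = 7.38e-20). EPHA2 was at 3.34 ± 0.478 CPM in MP38 and 40.4 ± 1.30 CPM in 92.1 (3.60 ± 0.0883, adjusted p = 1.78e-15). These 2 genes were picked after their values were seen.

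In 92.1 EPHA3 rose with VE-822 to 1.36 ± 0.113 CPM (log2 2.32 ± 0.177, edgeR adjusted p = 2.15e-05), whereas it fell in MP38, and the responses differed by 2.55 ± 0.133 (adjusted p = 4.59e-10). EPHA4, chosen likewise, rose in both lines, by 1.09 ± 0.266 in MP38 (adjusted p = 0.00164) and 1.11 ± 0.253 in 92.1 (adjusted p = 0.00808), and its responses differed by 0.05 ± 0.351 (adjusted p = 0.931). Its level was low, under 1 CPM in every group. It was at 0.341 ± 0.0309 CPM in DMSO and 0.735 ± 0.165 CPM in VE-822 in MP38, and at 0.241 ± 0.0653 and 0.536 ± 0.0852 CPM in 92.1. EFNA1 responses differed by 1.19 ± 0.126 (adjusted p = 1.63e-06), the same sign as the differences in EFNB1 and EFNB3. EFNA4 was also called with that sign, whereas EFNA5 and EFNB2 were called with the opposite sign. EFNA2 and EFNA3 were not called, so the ephrins shared no single direction.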
